A study of Drosophila melanogaster with 5 samples.

Results

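The regions described here were open-chromatin peaks found in sorted midline cells of the Drosophila embryo. They overlapped none of the 10000 listed peaks of the whole embryo but lay close beside one. The authors shortened each list to its 10000 highest peaks, and overlap was judged against these lists only. A weaker embryo peak that was left out may therefore cover a region counted here. A midline peak was included if it shared 0 bp with the embryo peaks and if the gap, the number of bases between its edge and the edge of the nearest embryo peak, was at most 1000 bp. The regions were thus chosen by the positions of the peaks in both lists, so the absence of overlap and the short gap are descriptions and not results. Of 10000 midline peaks, 3911 (39.1%) overlapped no embryo peak and are called midline-only, and 1100 of those (28.1%, exact 95% Clopper-Pearson interval 26.7 to 29.6%) lay within 1000 bp of an embryo peak. The other 2811 midline-only peaks were farther away and served as the comparison group. Embryo peaks that overlapped at least 1 bp of any midline peak are called shared, and the rest embryo-only.

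The midline list came from 2 libraries of GFP-positive cells that were sorted from 6 to 8 hour embryos of the strain sim3.7-Gal4 UAS-mCD8::GFP and fixed for 5 minutes after sorting. The embryo list came from 2 libraries of whole OregonR embryos of the same age, fixed for 10 minutes before homogenization, and these embryos contained midline cells as well. A further library held genomic DNA of adult virgin females of the strain y;cn,bw,sp and gave no values of its own. In the FAIRE groups chromatin was sonicated to fragments of 500 bp to 2 kb, so most gaps described here were shorter than the fragments. Strain, fixation and sorting differed between the groups together with the cell type, and their parts in a difference cannot be told apart. Peaks had been called by the authors after pooling the replicates, so there was 1 list per group, no spread between replicates, no known read depth and no test between groups. Intervals below cover counting error only, and they are too narrow where peaks lie in clusters. The files hold regions and no gene values, so the labelled cell type could not be checked against marker genes.

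FAIRE-seq recovers DNA that is depleted of nucleosomes, as at active promoters and enhancers. Midline cells form the ventral midline of the central nervous system, give rise to neurons and glia under the control of the transcription factor single-minded, and secrete signals that guide axons. A developmental gene often carries several enhancers near each other that act in different cells, and the edges of neighbouring open regions are drawn by the peak caller from the read density. An open region that is missing from one list may therefore stand next to one that is present in it.

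The midline-only peaks near an embryo peak were concentrated at short gaps within the limit. The median gap was 407.5 bp (interquartile range 247 to 641 bp), and the midpoints of the member peak and its embryo neighbour were a median of 775.5 bp apart. Gaps of 0 to 100 bp were found for 62 peaks (5.64%), gaps over 100 and up to 250 bp for 225, gaps up to 500 bp for 373, gaps up to 750 bp for 257 and gaps up to 1000 bp for 183. Per 100 bp of distance this was 61.4 peaks in the shortest class, 150.0 and 149.2 in the next ones, then 102.8 and 73.2. The number of peaks thus was highest between about 100 and 500 bp and lower both nearer to and farther from the embryo peak. Neighbouring peaks within a list had similar spacing. Gaps of up to 1000 bp between adjacent midline peaks had a median of 382 bp (n = 2771), and those between adjacent embryo peaks 374.5 bp (n = 2324). The share of gaps of 100 bp or less was 8.55% (7.54 to 9.66%) within the midline list and 9.90% (8.71 to 11.2%) within the embryo list. It was 5.64% (4.35 to 7.17%) from midline-only to embryo peaks. From shared midline peaks to the next embryo peak that they did not overlap it was 4.10% (3.39 to 4.92%). A low share was thus not particular to midline-only peaks. The measures also differ, since between lists only the nearer side counted and within a list every adjacent gap did. Peaks of the same list were never closer than 43 bp in the midline list or 36 bp in the embryo list, whereas the smallest gap between the lists was 2 bp.

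**Figure D1:**
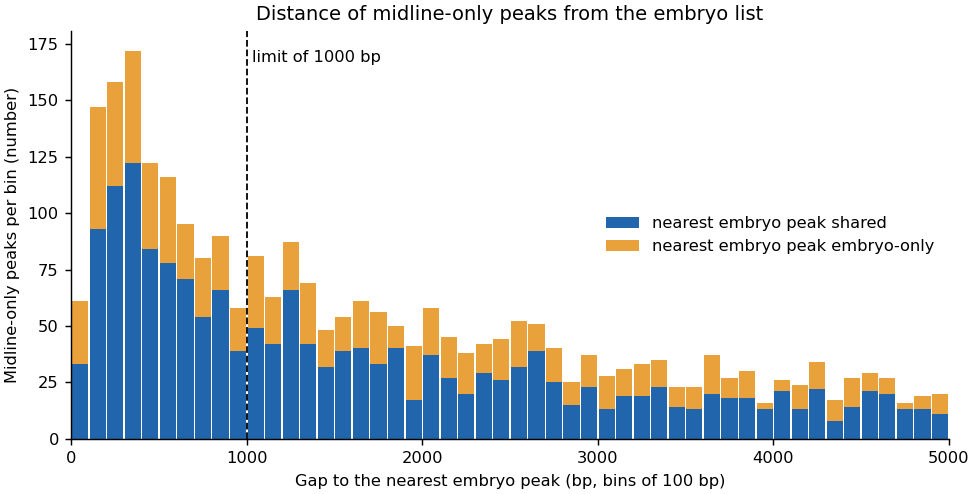
Number of midline-only peaks (y axis) by the gap to the nearest embryo peak (x axis, bins of 100 bp up to 5000 bp), with colours for the class of that embryo peak and a dashed line at 1000 bp. Bins between 100 and 400 bp are the tallest, with up to 172 peaks, and the bins on either side of the limit hold 58 and 81.

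The peaks just inside and just outside the limit are given as a description. The farthest peaks inside it had gaps of 1000, 999 and 998 bp and scores of 55, 127 and 138. They were located on 3L (3397571 to 3397911 and 8073974 to 8074188) and on 3R (4017995 to 4018500). Outside it, the nearest were a peak with a score of 64 on 3R (25170272 to 25170657) and one with a score of 50 on the same arm (7596709 to 7596907), both 1 bp past the limit. A peak with a score of 55 on 3L (401308 to 401461) was 3 bp past it. The score is the authors' whole-number value for each peak, on a scale that the files do not state, and it was used only within a list. All coordinates are 1-based on dm3.

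Midline-only peaks beside an embryo peak and those far from one had like scores and widths over the whole list. Their median score was 64 (interquartile range 53 to 95), and that of the other midline-only peaks was also 64 (51 to 91), while midline peaks shared with the embryo had 136 (82 to 226). The median width was 224 bp (173 to 296 bp) beside an embryo peak, 219 bp (169 to 303 bp) for the other midline-only peaks and 312 bp (234 to 433 bp) for shared midline peaks. Of the 1100 peaks, 823 (74.8%, 72.1 to 77.4%) scored below 95, the median of the midline list, against 77.3% (75.7 to 78.8%) of the other midline-only peaks. Only 9 of them (0.82%, 0.37 to 1.55%) were among the 1000 highest-scoring midline peaks, and the share was 0.89% (0.58 to 1.31%) for the other midline-only peaks. The distributions of the midline-only classes nearly coincided in both score and width. Among the 5000 highest-scoring midline peaks, however, the 272 near an embryo peak were narrower than the other midline-only peaks, with median widths of 286 bp (95% interval of the median 276 to 305 bp) and 324 bp (310 to 335 bp).

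**Figure D2:**
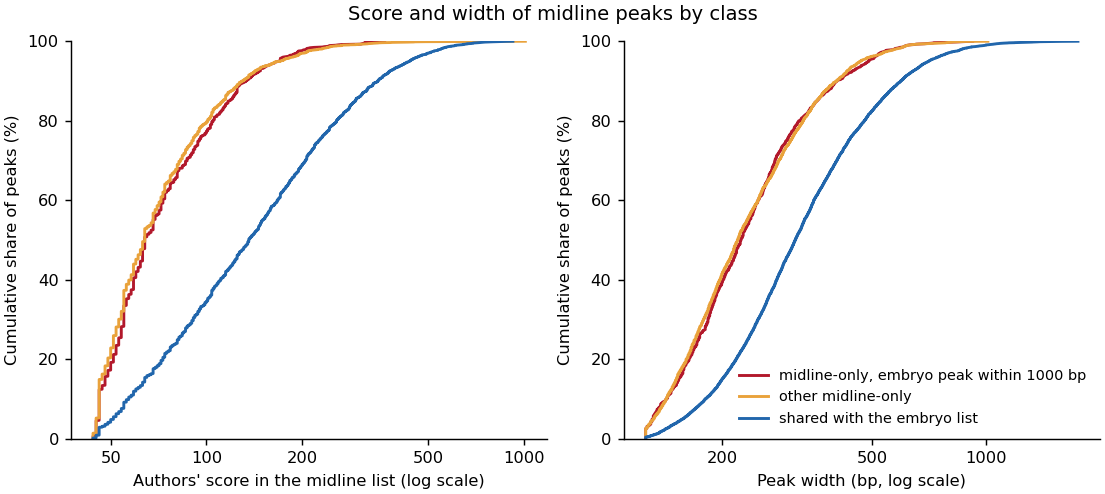
Cumulative share of midline peaks (y axes, percent) by the authors' score (left, log scale) and by width in bp (right, log scale) for the 1100 midline-only peaks near an embryo peak, the 2811 other midline-only peaks and the 6089 shared peaks. The curves of both midline-only classes nearly coincide, and the shared peaks lie to the right, with medians of 136 in score and 312 bp in width.

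By rank, only the share of midline-only peaks that lay near an embryo peak was compared, and not the width. In each successive 1000 ranks of the midline list, between 22.1 and 33.8% of the midline-only peaks had an embryo peak within 1000 bp. The lowest share was 17 of 77 midline-only peaks in the ranks after 1000 and up to 2000 (13.4 to 33.0%), and the highest was 50 of 148 at ranks 2001 to 3000 (26.2 to 42.0%). At ranks 1 to 1000 the share was 9 of 34 (26.5%, 12.9 to 44.4%) and at ranks 9001 to 10000 it was 172 of 687 (25.0%, 21.8 to 28.5%). All of these intervals overlapped. As a share of all midline peaks, however, these regions rose from 0.90% at the highest ranks to 19.0% at the lowest, because midline-only peaks as a whole were more frequent there.

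Among the members themselves, wider peaks scored higher (Spearman 0.51, Pearson 0.47 across 1100 peaks, where width and score came from the same reads). Gap and score were unrelated (Spearman -0.01), and gap and width nearly so (Spearman 0.09). The 62 peaks at gaps of up to 100 bp had a median score of 55.5 and a median width of 198 bp. In the 4 wider gap classes the median scores ran from 63 to 68 and the median widths from 218 to 238 bp.

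The embryo neighbour was more often a shared peak than an embryo-only peak. For 752 of the 1100 peaks (68.4%, 65.5 to 71.1%) the nearest embryo peak was itself shared, meaning that another midline peak overlapped it, and for 348 it was embryo-only. Over the whole embryo list 56.6% of peaks were shared, and for the other midline-only peaks the nearest embryo peak was shared in 61.8% (59.9 to 63.6%). For midline-only peaks at gaps over 1000 and up to 5000 bp the share was 63.9% (61.4 to 66.3%), whose interval overlapped that of the near peaks. Taking for each midline peak the nearest embryo peak that it did not overlap, the share was 66.2% (65.2 to 67.1%) over all midline peaks and 67.8% (66.6 to 69.0%) for shared midline peaks, so the value of the near peaks was close to that of the list as a whole. At the shortest gaps the share was close to that of all embryo peaks, with a wide interval. The neighbour was shared for 34 of 62 peaks at up to 100 bp (54.8%, 41.7 to 67.5%), for 66.2% at over 100 and up to 250 bp (59.6 to 72.4%) and for 69.9 to 70.0% in each of the 3 wider classes. With the limit set at 250 bp, the shares near and far from an embryo peak were 63.8 and 63.6%.

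Seen from the embryo list, 1212 embryo peaks had at least 1 of these midline-only peaks within 1000 bp (12.1%). The share was 14.5% of shared peaks (822 of 5658, 13.6 to 15.5%) and 8.98% of embryo-only peaks (390 of 4342, 8.15 to 9.87%). Shared embryo peaks are wider than embryo-only peaks, so the shares were also taken by width. Under 250 bp they were 13.5% of shared peaks (11.0 to 16.4%) and 7.22% of embryo-only peaks (6.23 to 8.31%). At 500 bp or more they were 15.4% (13.9 to 17.0%) and 8.02% (4.90 to 12.2%). At 250 to under 500 bp the values were 14.1% (12.9 to 15.4%) and 11.8% (10.3 to 13.5%), and those intervals overlapped. The rank of an embryo peak made little difference, since in each successive 1000 ranks of the embryo list between 10.2 and 13.5% of peaks had such a midline-only peak nearby, with overlapping intervals.

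**Figure D3:**
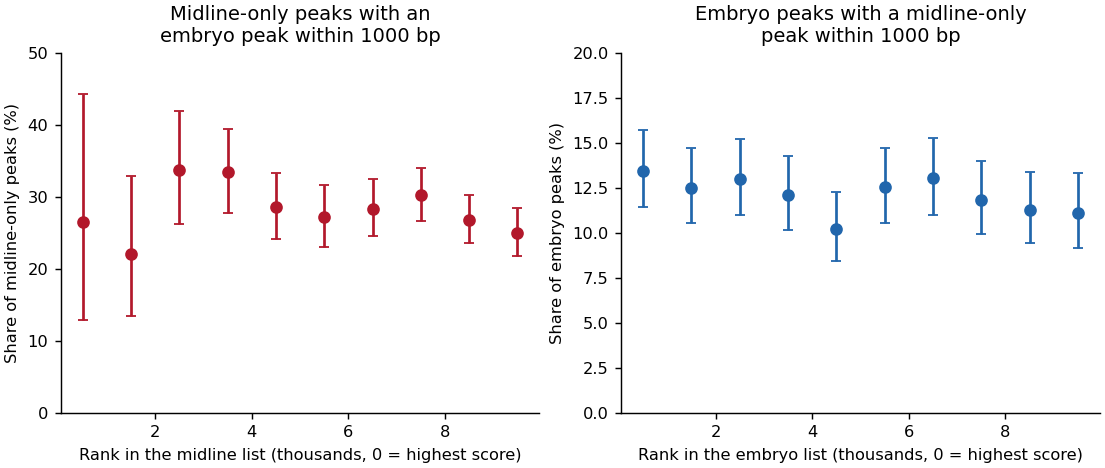
Left, share of midline-only peaks (y axis, percent) that had an embryo peak within 1000 bp, by rank in the midline list; right, share of embryo peaks (y axis, percent) that had such a midline-only peak within 1000 bp, by rank in the embryo list. Points are shares per 1000 ranks and bars are exact 95% intervals; the points run from 22.1 to 33.8% on the left and from 10.2 to 13.5% on the right, without a trend beyond the intervals.

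The embryo neighbours of these peaks were wider than the nearest embryo peaks of the other midline-only peaks, with medians of 362 bp (95% interval of the median 348 to 376 bp) and 338 bp (330 to 344 bp). Their median scores in the embryo list were 150.5 (141 to 162) and 142 (137 to 149), with overlapping intervals. Against midline-only peaks at gaps over 1000 and up to 5000 bp, for which the median neighbour width was 349 bp (341 to 360 bp), the intervals of width overlapped too. They also overlapped at limits of 250 and 500 bp and with only the 5000 highest-scoring peaks of either list. At a limit of 2000 bp, with a reciprocal overlap of 50% and with peaks of 500 bp they did not. Within the embryo list, the 697 distinct shared neighbours had a median score of 213 (122 to 389) in the embryo list and a median width of 432 bp, while the other 4961 shared embryo peaks had a median score of 248 (140 to 435) and a median width of 421 bp. The 331 distinct embryo-only neighbours had a median score of 105 (85 to 143) and a median width of 260 bp, against 108 (86 to 150.5) and 226 bp for the other 4011 embryo-only peaks. Shared neighbours thus scored lower than the rest of their class (95% intervals of the median 190 to 232 and 239 to 256), and embryo-only neighbours were wider than the rest of theirs (241 to 272 bp and 222 to 231 bp), although the quartiles of single peaks overlapped widely. Of the 1100 peaks, 117 (10.6%, 8.88 to 12.6%) stood beside one of the 1000 highest-scoring embryo peaks, against 8.40% (7.40 to 9.48%) of the other midline-only peaks by their nearest embryo peak, with overlapping intervals. A neighbour at least 1000 bp wide was found for 39 peaks (3.55%, 2.53 to 4.82%), while 2.65% of all embryo peaks were that wide.

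**Figure D4:**
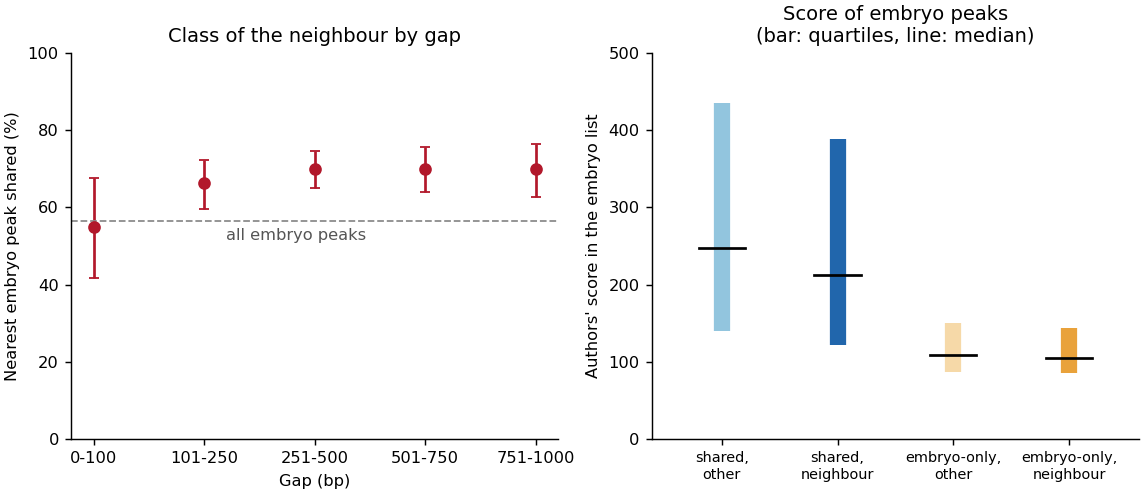
Left, share of peaks whose nearest embryo peak was shared (y axis, percent, with exact 95% intervals) by gap class in bp, with a dashed line at the 56.6% of all embryo peaks; right, quartiles (bars) and medians (lines) of the authors' score in the embryo list for neighbouring and other embryo peaks of each class. The share is 54.8% at 0 to 100 bp and 66.2 to 70.0% beyond, and the median scores are 213 against 248 for shared and 105 against 108 for embryo-only peaks.

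Where the neighbour was shared, a midline peak overlapped that embryo peak by at least 1 bp, as the class requires. In 732 of these 752 cases (97.3%) that midline peak was within 1000 bp of the midline-only peak, at a median gap of 467.5 bp (interquartile range 288.75 to 696 bp). The midline-only peak was the weaker of the pair in 592 cases (78.7%, 75.6 to 81.6%), the stronger in 149 (19.8%) and equal in 11, with a median score of 64 against 142. Its score was a median of 0.54 times that of the midline peak on the neighbour (0.29 to 0.90). Midline-only peaks far from the embryo list gave a like value, with an overlapping interval. They scored below the midline peak on their nearest shared embryo peak in 79.0% (77.0 to 80.9%) of 1736 cases, at a median ratio of 0.51. The midline-only peak was also narrower than the midline peak on the neighbour in 74.3% of the pairs. The scores of the pair were unrelated (Spearman 0.01 across 752 pairs).

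The embryo neighbour did not lean far towards the midline-only peak. It extended past the midline peaks on it towards the midline-only peak in 70.3% of 752 cases (66.9 to 73.6%, median reach 33 bp) and on the opposite side in 66.8% (63.3 to 70.1%, median reach 25 bp). These intervals overlapped. Embryo peaks were wider than midline peaks on the whole, and they reached past them on both sides.

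Where the neighbour was embryo-only, both peaks ranked low, much as their classes did. The 348 midline-only peaks of this kind had a median rank of 6972, against 7019 for those beside a shared neighbour. Their embryo neighbours had a median rank of 7133, against 6907 for all embryo-only peaks. The midline peak was placed lower in its list than the neighbour in 47.4% of cases (42.1 to 52.8%). Beside a shared neighbour that share was 75.1% (71.9 to 78.2%), where the neighbours had a median rank of 3744. The medians of width were 222.5 bp for the midline peak and 260 bp for the embryo peak. In 306 of the 348 cases (87.9%) each peak was the nearest peak of the other list to its partner. Those mutual pairs had a median gap of 363.5 bp and a median distance of 617.5 bp between midpoints. The ranks come from lists scored separately and are set side by side only as places in each list. A further 25 of the 348 peaks (7.18%) had a shared embryo peak within 1000 bp on their other side.

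Strength was not matched across a gap. The score of the midline-only peak and that of its embryo neighbour had a Spearman correlation of -0.04 across 1100 peaks, -0.04 for shared and -0.02 for embryo-only neighbours. The widths gave 0.03. Some of these points share a neighbour. The 1100 peaks had 1028 distinct neighbours, of which 68 had 2 midline-only peaks and 2 had 3. In 34 cases midline-only peaks flanked the embryo peak on both sides, and 27 of those embryo peaks were shared.

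Other midline peaks were often nearby, in part by construction. Another midline peak lay within 1000 bp of 831 of the 1100 peaks (75.5%, 72.9 to 78.1%), of 35.6% of all midline-only peaks and of 19.9% (18.5 to 21.4%) of the other midline-only peaks. Over all midline peaks the share was 46.2% (45.3 to 47.2%), and for shared midline peaks it was 53.1% (51.8 to 54.4%). The difference between the midline-only groups follows in part from the rule, since a shared neighbour within 1000 bp brings a midline peak with it. For the other midline-only peaks the rule kept every embryo peak more than 1000 bp away. That tends to keep the midline peaks on those embryo peaks farther off too. With a shared neighbour the share was 98.1% (738 of 752), and with an embryo-only neighbour it was 26.7% (93 of 348, 22.1 to 31.7%). The latter can be set beside the 23.1% (21.0 to 25.3%) of midline-only peaks at gaps over 1000 and up to 5000 bp, whose interval overlapped it. For 93 of the 1100 peaks the nearest midline peak lay within 1000 bp and was another midline-only peak of this kind.

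The neighbour lay on the side of lower coordinates for 539 peaks (49.0%, 46.0 to 52.0%). In 123 cases (11.2%, 9.38 to 13.2%) an embryo peak lay within 1000 bp on each side, so that the midline-only peak stood in a break between embryo peaks. The break was a median of 1163 bp long (871.5 to 1516 bp). Both flanking embryo peaks were shared in 50 cases, 1 of them in 58 and neither in 15. These 123 peaks had a median score of 68 and a median width of 242 bp, against 64 and 223 bp for the 977 with an embryo peak on 1 side. The 95% intervals of the median overlapped for score (63 to 74 and 63 to 68) and for width (214 to 260 and 216 to 229 bp).

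By chromosome arm, the share of midline-only peaks that had an embryo peak within 1000 bp was 23.7% on 2L (185 of 779, 20.8 to 26.9%), 27.2% on 3L (241 of 886, 24.3 to 30.3%), 29.1% on 3R (288 of 988, 26.3 to 32.1%), 29.6% on X (150 of 506, 25.7 to 33.8%) and 31.4% on 2R (236 of 752, 28.1 to 34.8%). The lowest and the highest arm had intervals that did not overlap, and every other pair of arms overlapped. As a share of all midline peaks of the arm, the order differed and all intervals overlapped. Those values ran from 9.57% on X (8.16 to 11.1%) to 11.8% on 2R (10.5 to 13.3%), with 10.1% on 2L (8.74 to 11.6%).

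The numbers in the authors' peak names skip values, and the skipped numbers were read as embryo peaks called but left out of the 10000, on the assumption that the peaks were numbered before the list was shortened. On that reading, 340 of the 1100 peaks (30.9%, 28.2 to 33.7%) lay between consecutively numbered embryo peaks, where no further embryo peak had been called. The share was 19.8% of all midline-only peaks and 15.5% (14.2 to 16.9%) of the other midline-only peaks, whose flanking embryo peaks were farther apart. For the other 760 peaks at least 1 embryo peak had been left out between the flanking embryo peaks, at an unknown position, and whether it covered the midline-only peak was not tested. The share was 43.5% (31.0 to 56.7%) at gaps of up to 100 bp and 25.7% (19.5 to 32.6%) at gaps over 750 bp. It was 48.8% (39.7 to 58.0%) for the 123 peaks between embryo peaks on both sides.

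The 10 highest-scoring of these peaks were spread over 4 arms, with 6 on 2R, 2 on 2L, and 1 each on 3L and 3R. They were 294 to 530 bp wide, with gaps of 156 to 919 bp, and 5 had a shared and 5 an embryo-only neighbour. All 10 held a higher place in the midline list than their neighbour did in the embryo list, and the 5 with a shared neighbour all outscored the midline peak on that neighbour. Since they were picked for their scores, this describes these 10 only.

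The highest-scoring peak lay on 2R at 2465550 to 2466079, with a score of 364 and rank 525. It stood between an embryo-only peak 381 bp away (score 123) and a shared embryo peak 936 bp away on the other side (score 274), and 2 embryo peaks had been left out between them. The next, on 2R at 19477533 to 19477900, scored 361 and lay between embryo-only peaks at 386 and 765 bp, with embryo scores of 86 and 106. No embryo peak had been left out there, so the break between those embryo peaks held no further embryo call. On 2R at 14563051 to 14563344 a peak with a score of 333 had an embryo-only neighbour at 501 bp that scored 261.

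The strongest peak next to a wide shared region lay on 2L at 20995171 to 20995510. It scored 317, and its neighbour at 156 bp was an embryo peak of 1020 bp whose midline counterpart scored 276. On 2R at 20986950 to 20987439 a peak of the same score had embryo peaks at 432 and 828 bp. Beside the peak on 2R at 11810067 to 11810592 (score 313, gap 269 bp), the midline peak on the shared neighbour scored 111, and no embryo peak had been left out. The peak on 2R at 13567451 to 13567882 scored 312, with a midline peak of 210 on its neighbour. The last 3 had scores of 308, 307 and 267 and gaps of 445, 580 and 919 bp. They were located on 3R (7815888 to 7816223), 3L (12713630 to 12713961) and 2L (9945911 to 9946430).

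**Figure D5:**
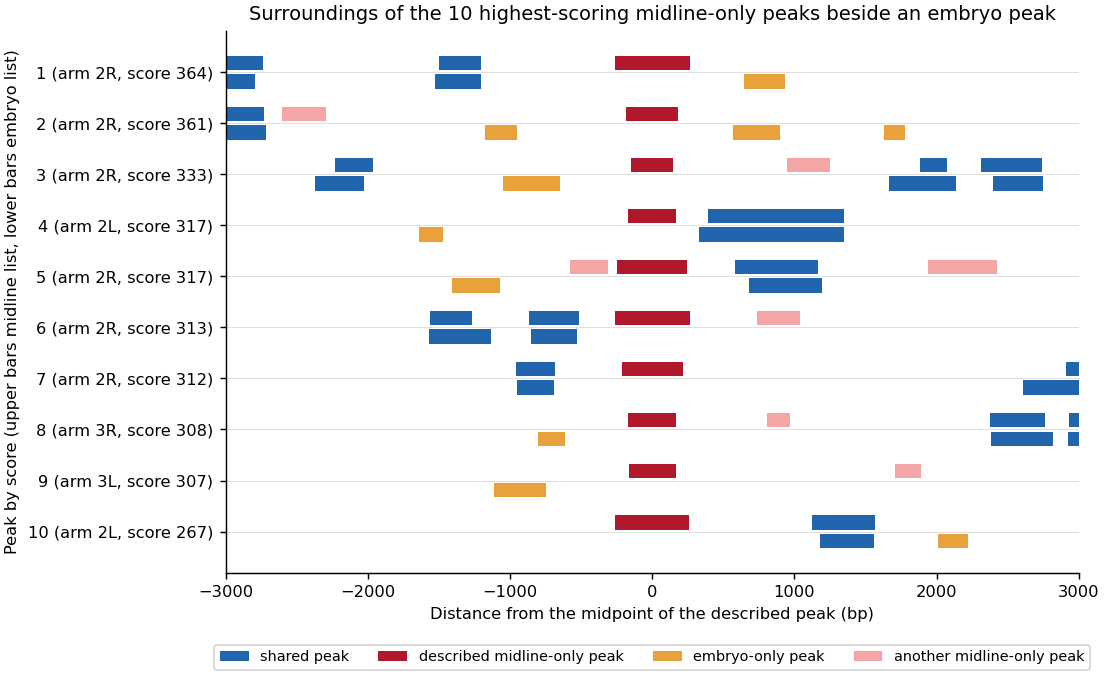
Peaks of the midline list (upper bars) and the embryo list (lower bars) within 3000 bp of the midpoint of each of the 10 highest-scoring midline-only peaks beside an embryo peak (x axis, distance in bp; rows in order of score). The described peak is at the centre of each row with no embryo bar beneath it, 5 of the nearest embryo peaks are shared and 5 are embryo-only, and in 3 rows embryo peaks lie within 1000 bp on both sides.

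The midline-only peaks beside the strongest embryo peaks scored far below the midline peaks on those neighbours. The highest-ranked neighbour was the embryo peak on 3R at 8889702 to 8890416, which scored 1550 and ranked 4. The midline-only peak 682 bp from it, at 8888889 to 8889019, was 131 bp wide and scored 45, while the midline peak on the neighbour scored 655. An embryo peak on 2R at 15162661 to 15163422 (score 1289, rank 19) had a midline-only peak on each side, at 663 and 608 bp, both with a score of 46. The remaining 2 of the 5 were a 2R peak (4120784 to 4121155) that scored 87 beside an embryo peak of 1291 and a 3L peak (3542509 to 3542872) that scored 75 beside one of 1281. All 5 scored between 45 and 87, and the midline peaks on their neighbours between 468 and 655. Since they were picked for the score of the neighbour, this describes these 5 only. Across the 752 peaks with a shared neighbour the medians were 64 and 142.

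The strongest embryo-only neighbours ranked between 739 and 1392 in the embryo list. Those on 3R scored 611 (18546303 to 18546622) and 546 (5059514 to 5059831), with the midline-only peak 250 and 880 bp away. Those on X scored 553 (8293130 to 8293392), 484 (2883437 to 2883732) and 447 (8455938 to 8456239), with the midline-only peak 274, 679 and 310 bp away. The midline-only peaks beside them scored 45 to 68, where the lowest score of the midline list was 44 and the median of all 1100 peaks was 64. Those beside the neighbours that scored 484 and 447 also had a shared embryo peak on their other side, at 934 and 328 bp. Since the 5 were picked for the score of the neighbour, this describes these 5 only. The 348 peaks with an embryo-only neighbour had a median score of 65.

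The closest pairs nearly touched. On 3R a midline-only peak at 5700833 to 5700992 ended 2 bp from an embryo-only peak at 5700586 to 5700830, which scored 298. The next gaps were 5 bp on X at 1857541 to 1857686, 6 bp on 3R at 25036182 to 25036539, and 7 bp on X at 8121252 to 8121376 and on 3L at 7948066 to 7948190. The neighbour was embryo-only in 4 of these 5 pairs. The peak on X at 8121252 to 8121376 lay in a break between 2 embryo-only peaks, with 276 bp to the other. Except for the peak on 3R at 25036182 to 25036539, which was 358 bp wide and scored 123, these midline peaks scored 44 to 53. In such pairs a shift of an edge by a few base pairs would have made the peaks overlap.

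The embryo peaks with 3 midline-only peaks each were chosen after their values were seen. On 2L an embryo peak at 18898133 to 18898387 (score 71) had midline-only peaks at gaps of 499, 280 and 713 bp that scored 141, 111 and 63, while the midline peak on it scored 53. On 3L an embryo peak at 458256 to 458434 (score 98) had midline-only peaks at 592, 230 and 684 bp that scored 91, 63 and 45, with 140 for the midline peak on it. Both embryo peaks were shared and weak in the embryo list, at ranks 9786 and 7551.

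The mirrored rule gave a set of like size and median gap. Of 4342 embryo-only peaks, 1017 (23.4%, 22.2 to 24.7%) had a midline peak within 1000 bp, at a median gap of 398 bp. The nearest midline peak was shared for 65.1% (62.1 to 68.0%) of them, against 57.8% (56.1 to 59.5%) for the other embryo-only peaks. They were wider than the other embryo-only peaks, with medians of 263 and 218 bp, whereas the midline-only peaks differed by 224 against 219 bp. Of the mirrored set, 40.3% (37.3 to 43.4%) lay between consecutively numbered midline peaks. The matching share of the 1100 midline-only peaks was 30.9% (28.2 to 33.7%). The peak numbers ran less high in the midline list, to 15189 against 17552 in the embryo list. The share of midline-only peaks with a peak of the other list within 1000 bp was higher than this mirrored share, with intervals that did not overlap. Shared midline peaks had a further, non-overlapping embryo peak within 1000 bp more often than midline-only peaks had any, in 44.8% (43.6 to 46.1%) of 6089 cases.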

How the data were processed

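Open chromatin was measured by FAIRE-seq in 2 midline and 2 whole-embryo libraries, with 1 genomic input. CASAVA 1.8.2, Bowtie2, SAMtools, bedtools and MACS2 and the dm3 build are named in the submitters' processing notes; their settings, and how the input served, are not stated there. The authors deposited, per the names in the files, the 10000 highest peaks called on pooled replicates, each with a score whose scale is not stated. Depth is unknown. Columns of per-sample values left unused numbered 0.

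Overlaps, gaps, classes and neighbours were computed here from the peak positions (ties in gap went to the higher-scoring neighbour). Medians are given with interquartile ranges or exact binomial intervals of the median, and shares with exact intervals; no p-value was computed, since each group has 1 list. On simulated lists, 1000 of 1000 peaks placed within the limit were found. The alternatives changed the distance limit, overlap rule, peak width, list length and comparison group. Named regions are the 10 highest-scoring peaks, the 5 with the highest-scoring neighbour, the 5 with the highest-scoring embryo-only neighbour, the 5 smallest gaps, the 3 highest-scoring between embryo peaks on both sides (these are among the 10), and the 3 on either side of the limit. The members and lists were chosen with earlier results of these data known. No dm3 annotation or sequence was used, so genes and sequences are not analysed here. The work used pandas 2.3.3, scipy 1.17.1, numpy 2.4.6 and Python 3.11.15, with figures by matplotlib 3.10.9.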

Additional observations from a re-analysis of the deposited data

How the results depend on the processing

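Of 68 values recomputed under the alternatives, 31 were labelled as the same, 36 as moved and 1 as reversed. The same meant within the interval of the reported value, or within 1.5 times for the number of peaks. Changing the comparison group could not move the values of the near peaks. Those values were labelled reversed only if a difference changed direction, and the same otherwise. The number of peaks was 287, 660 and 1709 at limits of 250, 500 and 2000 bp, 2514 with a reciprocal overlap of 50% and 272 among the 5000 highest-scoring midline peaks. In the same order the median gap was 155, 276, 677 and 0 bp, and it was 366.5 bp with peaks of 500 bp; the medians at other limits follow from the limit, and the 0 from counting partly overlapping peaks as neighbours. Median width was 215 bp at 250 bp, 238 bp with reciprocal overlap, 233 bp with peaks of 500 bp, and 286 and 232 bp with the shorter midline and embryo lists (reported 224 bp; the other midline-only peaks had 221, 219, 220, 324 and 233 bp in that order); median score was 80 with reciprocal overlap and 125 and 72 with the shorter lists (others 64, 125 and 69). The share with a shared neighbour was 63.8% at 250 bp, 72.3% with peaks of 500 bp, and 49.3 and 86.5% with the shorter lists. For the other midline-only peaks it was 63.6, 63.8, 44.0 and 79.5% in that order. The intervals overlapped at 250 bp, with the shorter midline list and also at 500 bp (67.3% near against 62.9% far from an embryo peak). With reciprocal overlap the difference reversed, to 28.7% near against 50.5% far from an embryo peak. This is because a partly overlapping embryo peak without a reciprocal partner then counts as an embryo-only neighbour. The median neighbour score, reported as 150.5, was 232 with reciprocal overlap and 312 with the shorter embryo list, and the median neighbour width, reported as 362 bp, was 530.5, 382 and 460 bp with reciprocal overlap, peaks of 500 bp and the shorter embryo list. For the other midline-only peaks the scores were 142 and 295 and the widths 338, 341 and 448 bp, in that order. The intervals of neighbour width overlapped at 250 and 500 bp and with either shorter list. Those of neighbour score were apart only with reciprocal overlap and with peaks of 500 bp. The share between consecutively numbered embryo peaks was 35.9 and 34.1% at 250 and 500 bp, 49.4% with reciprocal overlap, and 23.9 and 7.68% with the shorter lists (others 18.6, 16.9, 15.5, 10.9 and 1.79%). The share with another midline peak within 1000 bp was 57.9% at 2000 bp, 79.1% with peaks of 500 bp, and 55.9 and 87.7% with the shorter lists (others 18.2, 23.1, 6.44 and 27.1%). Where no construction is named, the cause was not tested. Shares by rank, planned as another measure of strength, are given in the report. No paired analysis was possible because each list holds pooled replicates, which also kept either replicate from being left out. With the depth unknown, a midline-only peak may have been undetected in the embryo and not closed.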
